A study of Mus musculus with 2 samples.

Results

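The genes described here build the hyaluronan matrix of the brain: the 4 lecticans Ncan, Bcan, Acan and Vcan, the 4 hyaluronan and proteoglycan link protein genes Hapln1 to Hapln4, and the tenascins Tnr and Tnc. These 10 genes were listed by symbol and matched to the gene models of GENCODE release M21, which holds 55536 genes in the deposited tables. All 10 had a gene model. The measurements are polyA RNA-seq of mouse forebrain, which takes in cortex, striatum, thalamus and hypothalamus, from untreated newborns of strain B6NCrl on postnatal day 0. There is 1 group of 2 libraries, pup 3 and pup 1, each made from 10 ng of RNA of a single forebrain. Both pups carry 1 donor identifier in the labels, sex was not collected, and no treatment or altered allele is named. With 1 group there is nothing to test between groups, and values are given by size.

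Lecticans are proteoglycans, proteins that carry chondroitin sulfate chains. Their N-terminal domain binds hyaluronan, a long unbranched sugar polymer that lies between cells, and link proteins lock that contact in place. Their C-terminal lectin domain binds tenascins, which join several lecticans together. In adult brain this mesh condenses into perineuronal nets around certain neurons, while the looser matrix of the newborn brain surrounds migrating cells and growing axons.

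The tables held 41230598 expected counts on genes in pup 3 and 40964552 in pup 1, and 15010 and 15864 genes reached 1 TPM, a level scaled for transcript length and library size. Emx1, a transcription factor of the developing cortex, had 32.6 TPM in pup 3 against 23.8 TPM in pup 1, whereas Hoxb4, a gene of the hindbrain and spinal cord, was listed at 0 TPM in both. The libraries differed in sex-linked RNA, with 4428 counts of Xist in pup 3 and 2 in pup 1, against 0 and 3115 counts of the Y-linked Ddx3y. Over the 15463 genes with a mean of 1 TPM or more, the log2 ratio of TPM + 1 between pup 3 and pup 1 (pup 3 on top) had a median of -0.24. In bulk tissue, fewer cells of a type and less RNA per cell cannot be told apart.

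Several members are spliced into forms that differ in whole protein regions, and the estimated levels of those forms are among the results below. The sequences that set the forms apart are the exon joins, taken from the GENCODE M21 transcripts on mm10. Each is written 5′ to 3′ in the sense of the gene, with the last 15 bases of the upstream exon in lower case and the 15 bases that follow in capitals. Every 30-base join was found in transcripts of 1 gene alone.
Vcan V0 and V2, entering the GAG-alpha exon: cctactgctttaaacCTAAACAGAATATAT
Vcan V1, entering the GAG-beta exon: cctactgctttaaacGTCGATTGAGTGATA
Vcan V3, passing over both: cctactgctttaaacGACCTGATCTCTGCA
Vcan V0, GAG-alpha into GAG-beta: gagaaaacaagacagGTCGATTGAGTGATA
Vcan V2, leaving the GAG-alpha exon: gagaaaacaagacagGACCTGATCTCTGCA
Tnc-203, into its additional exon: ccacggctaccacagAGGCCTTGCCCCTTC
Tnc-204, passing over that exon: ccacggctaccacagAAGCTGAACCGGAAG
Bcan-201, spliced to the next exon: tggctccctcatcagGTGACTGTATCCCCA
Bcan-206, read on into the intron: tggctccctcatcagGTAATTCTGCTGAAG
The Vcan join shared by V0 and V2, the V1 join and the V3 join have the same lower-case part because they leave the same exon, and only the capitals tell them apart.

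Of the 10 genes, 6 reached 1 TPM in both pups: Ncan, Bcan, Vcan, Tnc, Tnr and Hapln3. Among all 22028 protein-coding genes 59.5% did so, close to the share of the members. The matrix was led by Ncan and Bcan, followed by Tnc and Vcan, while Acan, Hapln1, Hapln2 and Hapln4 stayed below 1 TPM. By mean TPM the order was Ncan, Bcan, Tnc, Vcan, Tnr, Hapln3, Hapln1, Hapln4, Hapln2 and Acan. Neighbours in that order did not overlap between the pups from Bcan down to Hapln4. The ranges of Ncan and Bcan overlapped, although Ncan was the higher of them in each pup, and the order of Hapln4, Hapln2 and Acan was not the same in the 2 pups.

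**Figure D1:**
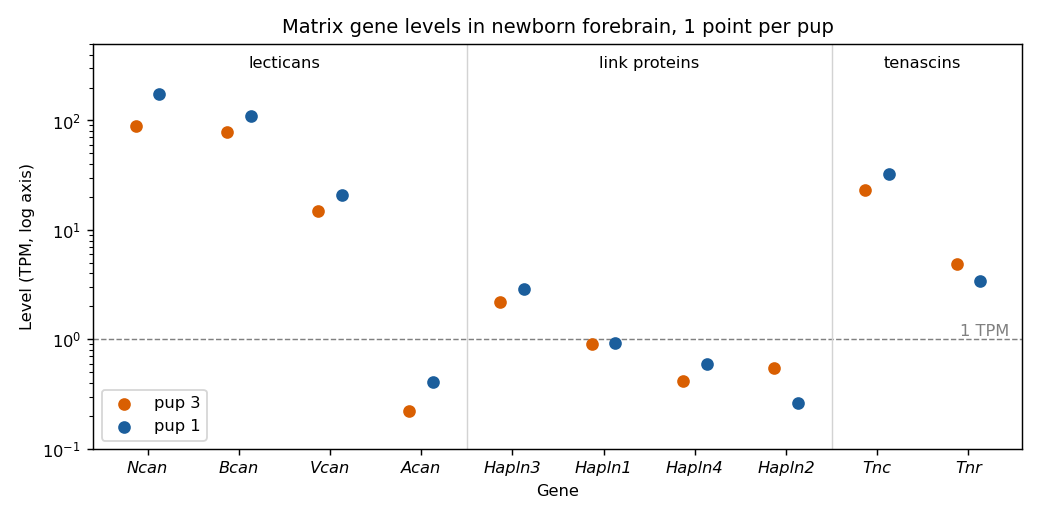
Level of each gene in TPM on a log axis, with 1 point per pup (pup 3 left, pup 1 right) and a dashed line at 1 TPM. Ncan and Bcan lie between 78.8 and 173 TPM, and Acan, Hapln1, Hapln2 and Hapln4 lie under the line in both pups.

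Neurocan, the product of Ncan (ENSMUSG00000002341.8, chromosome 8, 70093085 to 70120873, minus strand), is a secreted lectican of the nervous system that is made in large amounts around birth. Ncan had 88.7 TPM in pup 3 and 173 TPM in pup 1, a mean of 131 ± 59.6 TPM (SD, n = 2 pups here and below). The values rested on 18519 expected counts in pup 3 and 32045 in pup 1. Its mean was higher than that of 94.3% of protein-coding genes, and its single annotated transcript of 7195 bases took all of its reads. Ncan made up 48.6% of the summed TPM of the 4 lecticans in pup 3 and 56.9% in pup 1.

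Brevican, the product of Bcan (ENSMUSG00000004892.13, chromosome 3, 87987531 to 88000230, minus strand), is the smallest lectican and is made largely by glia. Bcan had 78.8 TPM in pup 3 and 109.9 TPM in pup 1, a mean of 94.3 ± 22.0 TPM from 6557 and 8081 counts. That placed it above 91.9% of protein-coding genes, and at 43.1% of lectican TPM in pup 3 and 36.2% in pup 1. Ncan and Bcan thus took most of the class in each pup, and the log2 ratio of Ncan to Bcan was 0.17 in pup 3 and 0.65 in pup 1.

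Versican, the product of Vcan (ENSMUSG00000021614.16, chromosome 13, 89655312 to 89742509, minus strand), is a large lectican found in many tissues as well as in brain. Vcan had 15.01 TPM in pup 3 and 20.7 TPM in pup 1, a mean of 17.8 ± 4.00 TPM from 2732 and 3396 counts. It was 8.22% of lectican TPM in pup 3 and 6.80% in pup 1. The log2 ratio of Vcan to Ncan was -2.56 in pup 3 and -3.06 in pup 1.

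Aggrecan, the product of Acan (ENSMUSG00000030607.7, chromosome 7, 79053483 to 79115099, plus strand), is the main proteoglycan of cartilage and, in adult brain, a core component of perineuronal nets. Acan had 0.22 TPM in pup 3 and 0.41 TPM in pup 1. The counts were 38 in pup 3 (95% exact Poisson interval 26.9 to 52.2, counting error only) and 45 in pup 1 (32.8 to 60.2). The count intervals overlap widely, while the TPM values lie further apart because the tables give the gene a mean transcript length of 6022 bases in pup 3 and 4300 bases in pup 1. The shorter annotated transcript, Acan-202 of 2596 bases, took 4.5 counts in pup 3 and 17.2 in pup 1. Acan was 0.120% of lectican TPM in pup 3 and 0.135% in pup 1. Of the 10 cartilage markers examined, 6 reached 1 TPM in both pups, with a summed level of 53.4 TPM in pup 3 and 64.3 TPM in pup 1. The sum was mostly Col9a3, at 37.2 and 40.9 TPM, and Col2a1, the main cartilage collagen, had 2.02 and 4.08 TPM. The matrix genes Matn1 (0.13 and 0.22 TPM), Comp (0.04 and 0.24 TPM) and Matn3 (0.14 and 0.12 TPM) were near 0. The part of cartilage RNA in the Acan level was not tested.

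The link proteins were far scarcer than the lecticans: the 4 Hapln genes summed to 4.06 TPM in pup 3 and 4.66 TPM in pup 1, against lectican sums of 183 and 304 TPM. Hapln3 (ENSMUSG00000030606.8, chromosome 7, 79115102 to 79131018, minus strand), a link protein gene known mainly outside the nervous system, was the highest of them. It had 2.18 TPM in pup 3 and 2.88 TPM in pup 1, a mean of 2.53 ± 0.495 TPM from 149 and 158 counts. That was 53.7% of link protein TPM in pup 3 and 61.8% in pup 1.

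Hapln1 (ENSMUSG00000021613.9, chromosome 13, 89539796 to 89611652, plus strand) encodes the link protein first known from cartilage, and mice that lack it in brain form weak perineuronal nets. Hapln1 had 0.91 TPM in pup 3 and 0.93 TPM in pup 1, from 81 counts (64.3 to 101) and 108 counts (88.6 to 130). A retained-intron entry of 464 bases, Hapln1-202, carried 48.9% of its TPM in pup 3 and 22.6% in pup 1 on only 4.8 and 2.0 counts. The protein-coding transcript Hapln1-201, of 5715 bases, was at 0.46 TPM (pup 3) and 0.72 TPM (pup 1). The near-equal gene levels of the pups therefore held a lower coding transcript estimate in pup 3. On the TPM + 1 scale its log2 ratio was -0.24, equal to the median over all genes with a mean of 1 TPM or more. The counts of Hapln1, scaled for depth, gave -0.42 (95% interval -0.86 to 0.00, counting error only).

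Hapln4 (ENSMUSG00000007594.10, chromosome 8, 70083457 to 70090862, plus strand) encodes a brain link protein of perineuronal nets, also called Bral2. Hapln4 had 0.42 TPM in pup 3 and 0.59 TPM in pup 1, from 44 counts (32.0 to 59.1) and 47 counts (34.5 to 62.5). Nearly all of those reads, 44.0 and 46.0 counts, were assigned to its coding transcript.

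Hapln2 (ENSMUSG00000004894.10, chromosome 3, 88021750 to 88027583, minus strand) encodes Bral1, a link protein of the nodes of Ranvier in myelinated tracts. Hapln2 had 0.55 TPM in pup 3 and 0.26 TPM in pup 1, from 22 counts (13.8 to 33.3) and 15 counts (8.40 to 24.7). Its coding transcript Hapln2-201 was listed at 0.00 TPM in both pups, and the reads were assigned mostly to retained-intron entries. Hapln2-203 took 18.6 counts in pup 3 and 15.0 in pup 1, or 51.0% and 100% of the gene's TPM, and Hapln2-204 took 3.3 and 0.0 counts, or 48.2% and 0%. The deposited upper bounds for Hapln2-201 were 0.25 TPM in pup 3 and 0.17 TPM in pup 1, so a low level of the coding form is within the bounds. Of the 6 oligodendrocyte markers, 3 reached 1 TPM in both pups, with a sum of 28.5 TPM in pup 3 and 35.6 TPM in pup 1, of which Mbp held 13.6 and 18.1 TPM. Mog had 0.42 and 0.93 TPM, while Mobp (0.04 and 0.15 TPM) and Opalin (0.02 and 0.00 TPM), genes of maturing oligodendrocytes, were near or at 0.

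Tenascin-C, the product of Tnc (ENSMUSG00000028364.15, chromosome 4, 63959785 to 64047015, minus strand), is a many-armed glycoprotein made by radial glia and young astrocytes. Tnc had 23.1 TPM in pup 3 and 32.6 TPM in pup 1, a mean of 27.9 ± 6.72 TPM from 4760 and 5963 counts. Tenascin-R, the product of Tnr (ENSMUSG00000015829.13, chromosome 1, 159523769 to 159931729, plus strand), is made in the central nervous system, where it binds lecticans in perineuronal nets. Tnr had 4.90 TPM in pup 3 and 3.38 TPM in pup 1, a mean of 4.14 ± 1.07 TPM from 505 and 507 counts. Tnc was the higher tenascin in each pup, with 82.5% of the summed TPM of the pair in pup 3 and 90.6% in pup 1. The log2 ratio of Tnc to Tnr was 2.21 in pup 3 and 3.23 in pup 1, and with protein-coding transcripts of 1000 bases or more alone its mean was 3.76.

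The pups had almost the same number of Tnr reads but different Tnr TPM. A retained-intron entry of 660 bases, Tnr-205, took 46.1 counts in pup 3 and 18.8 in pup 1, which came to 2.79 and 1.28 TPM, or 56.9% and 38.0% of the gene. The coding transcripts of 1000 bases or more, Tnr-202 (12202 bases) and Tnr-201 (4424 bases), together held 454.5 counts in pup 3 and 487.8 in pup 1. On those transcripts alone Tnr was at 1.79 TPM (pup 3) and 2.09 TPM (pup 1), with a log2 ratio of -0.15 where the whole gene gave 0.43. The gene total was thus higher in pup 3 through a short entry. The opposite-strand gene Gm38039 shares 443 exon bases with the last exon of Tnr-202 and had 61 counts in pup 3 and 123 in pup 1. No source used here says if the libraries are stranded, so reads on those bases cannot be told apart. In the same way 176 exon bases of Tnc are shared with 8030451A03Rik, which had 9 counts in pup 3 and 16 in pup 1.

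**Figure D2:**
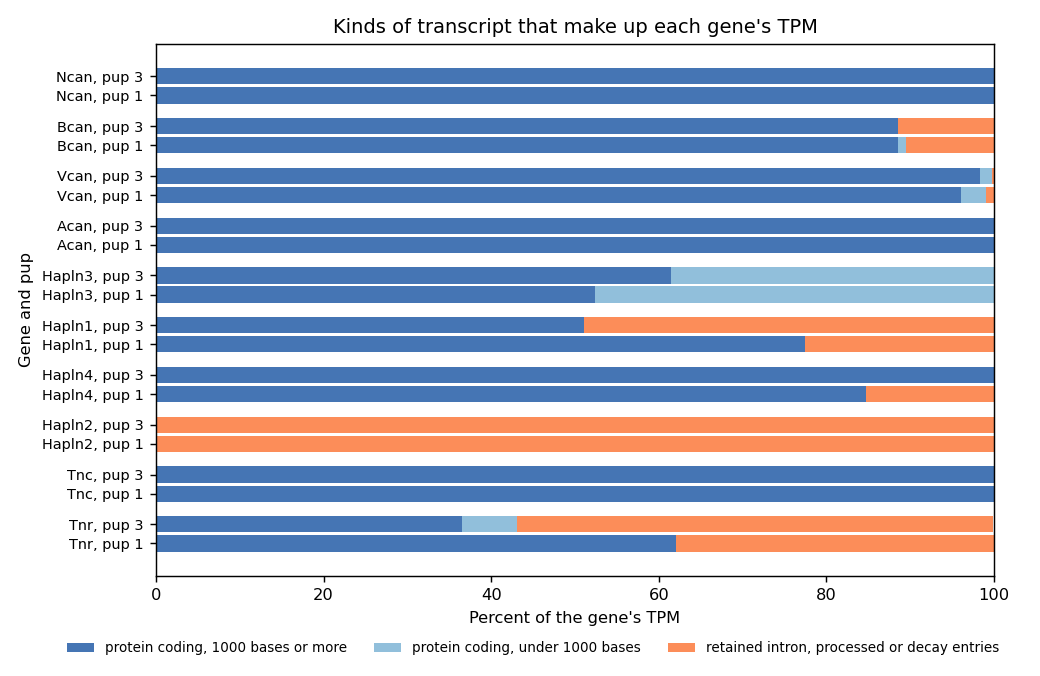
Share of each gene's TPM in percent, by kind of annotated transcript, with the bar of pup 3 above that of pup 1. Long coding transcripts fill the bars of Ncan, Acan and Tnc, other entries make up all of Hapln2, and Tnr's retained-intron share is 56.9% in pup 3 and 38.0% in pup 1.

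Versican has 4 classical forms that differ in the exons for its chondroitin sulfate attachment regions, GAG-alpha and GAG-beta. V0 holds both, V1 holds GAG-beta, V2 holds GAG-alpha, and V3 holds neither and so lacks the main attachment sites. In the annotation, GAG-alpha was exon 7 of the 15 exons of Vcan-203, with 2880 bases or 960 codons (chromosome 13, 89702918 to 89705797). GAG-beta was exon 8, with 5217 bases or 1739 codons (89688285 to 89693501). The lengths of both exons are multiples of 3, so either can be left out with the reading frame kept.

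By TPM, V3 and V0 led. V3 (Vcan-201) reached 6.37 TPM (pup 3) and 8.02 TPM (pup 1), or 42.4% and 38.8% of the gene. V0 (Vcan-203) stood at 5.35 and 7.07 TPM, or 35.6% and 34.2%. V2 (Vcan-202), the form best known from mature brain, had 1.12 and 2.57 TPM, or 7.47% and 12.4%, and V1 (Vcan-206) had 0.34 and 0.84 TPM, or 2.28% and 4.05%. The 5 remaining entries held 12.2% in pup 3 and 10.4% in pup 1, with Vcan-205, of 2273 bases, at 1.58 TPM (pup 3) and 1.36 TPM (pup 1). The order V3 and V0, then V2, then V1 held in each pup, but the order of the leading pair depends on the unit. V0 took 1940 counts in pup 3 and 2277 in pup 1 against 416 and 465 for V3, since its transcript has 12427 bases and that of V3 has 2321. As a share of the expected counts of the 4 forms, V3 averaged 15.0% and V0 71.5%.

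The V3 value rests on few distinguishing bases. All 13 exons of Vcan-201 lie within exons of Vcan-203, so only the join from the exon before GAG-alpha to the exon after GAG-beta sets it apart by sequence. The authors' deposited lower and upper TPM bounds for V3 were 4.88 and 7.27 in pup 3 and 6.28 and 9.17 in pup 1. Those for V0 were 4.86 and 5.56 in pup 3 and 6.45 and 7.32 in pup 1, so the bounds of V3 and V0 overlapped in each pup. The annotated last exons also differ, with 2047 bases for V0, 1019 for V1, 714 for V2 and 303 for V3. Whether these annotated ends affected how reads were shared among the forms was not tested.

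**Figure D3:**
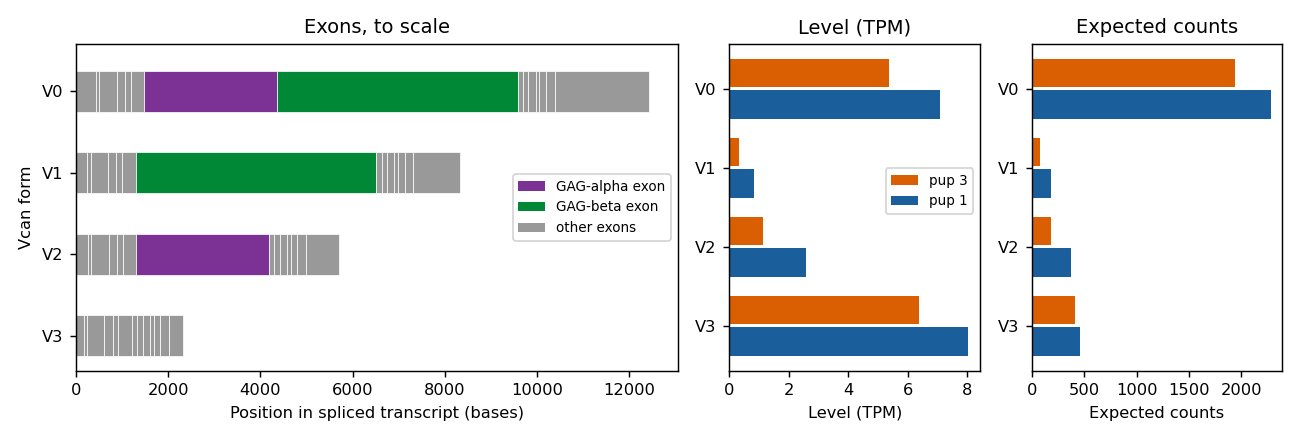
Exons of the 4 Vcan forms to scale along the spliced transcript in bases, their TPM, and their expected counts, with pup 3 above pup 1. V3 has the highest TPM (6.37 and 8.02) and V0 by far the most counts (1940 and 2277).

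The tenascin-C reads were shared by a pair of coding transcripts of nearly equal length. Tnc-203 held 54.7% of the gene's TPM in pup 3 and 52.2% in pup 1, and Tnc-204 held 45.3% and 47.8%. Tnc-203 has an additional exon of 273 bases or 91 codons (chromosome 4, 63984460 to 63984732), the length of an exon for a single fibronectin type III repeat, the unit that alternative splicing adds to or removes from tenascin-C. Of its 26 exons 6 have this length, against 5 of the 26 exons of Tnc-204. The deposited bounds of the pair overlapped, with 10.93 to 13.59 TPM for Tnc-203 and 8.71 to 11.44 TPM for Tnc-204 in pup 3, and 14.64 to 18.36 and 13.04 to 16.75 TPM in pup 1. Tnc-203 was the higher in both pups by less than those bounds. The transcripts also start differently, with a first exon of 582 bases in Tnc-203 and 267 in Tnc-204. Tnc-204 has 26 exons without the additional exon, so it holds an exon that Tnc-203 lacks. The split therefore does not measure the additional exon alone.

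Brevican is known in rat as a secreted form and as a shorter form held to the membrane by a glycosylphosphatidylinositol anchor. Here the secreted-type transcript Bcan-201 held 88.5% of the gene's TPM in pup 3 and 88.6% in pup 1. The annotated retained-intron entry Bcan-206, of 1473 bases, held 9.25% and 7.82%, or 7.28 TPM in pup 3 and 8.59 TPM in pup 1, on 294 and 308 counts. Its last exon of 1129 bases takes in the 588 bases of exon 8 of the 14 exons of Bcan-201 and runs 541 bases on into the intron, past the join printed above. The annotation gives Bcan-206 no protein, and these tables do not tell a membrane form from unspliced RNA. The transcript shares of Bcan differed little between the pups.

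Hapln3 was divided between Hapln3-203, of 3358 bases, with 61.5% of its TPM in pup 3 and 52.3% in pup 1, and Hapln3-202, of 930 bases, with 38.5% and 47.7%. The shorter took 20.5 counts in pup 3 and 29.8 in pup 1, and the longer 129 and 128.

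In every case a lectican gene lies next to a link protein gene on the same chromosome, with 0 annotated genes between them. Acan and Hapln3 end 2 bases apart on chromosome 7, Ncan and Hapln4 lie 2222 bases apart on chromosome 8, Bcan and Hapln2 21519 bases apart on chromosome 3, and Vcan and Hapln1 43659 bases apart on chromosome 13. The genes run towards each other except for Bcan and Hapln2, which lie on the same strand. The neighbours did not share a level. The log2 ratio of lectican to link protein was 7.42 in pup 3 and 7.97 in pup 1 for Ncan and Hapln4, 6.92 and 8.26 for Bcan and Hapln2, and 3.90 and 4.33 for Vcan and Hapln1. For Acan and Hapln3 it was -2.83 and -2.55, the sole pair in which the link protein gene was the higher.

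The families can also be read from exon lengths. All 4 lecticans hold the run of exons of 175, 128 and 294 bases, which Acan holds 2 times, and the run of 159, 83 and 145 bases. Both runs occur in these 4 genes alone among 21943 protein-coding genes, a share of 0.0182%. The 294-base exon of the first run is the length of the exon just before GAG-alpha in Vcan, where the printed joins begin. Tnc and Tnr share the run of 270, 186, 90 and 264 bases, found in no other protein-coding gene. They share a further run of 8 exons, of 120, 144, 131, 133, 152, 97, 162 and 164 bases. Tnxb also holds that run, so that 0.0137% of protein-coding genes have it. No run was shared by all 4 Hapln genes.

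Between the pups, 5 of the 6 members with a mean of 1 TPM or more were lower in pup 3, beside 79.6% of all genes so filtered. None of the 6 was over 2-fold lower, beside 2.37% of all such genes, and none over 2-fold higher, beside 0.459%. A lower value in pup 3 is thus near the background. The nearest to 2-fold was Ncan, with a log2 ratio of -0.96, a 1.94-fold difference on the TPM + 1 scale, and only 2.81% of genes had a lower ratio. Its counts, scaled for depth alone, gave -0.80 (95% interval -0.83 to -0.77, counting error only). Bcan and Tnc both had -0.48, Vcan -0.44 and Hapln3 -0.29. Tnr, at 0.43, was the sole member of the 6 higher in pup 3, although its counts scaled for depth gave -0.02 (-0.20 to 0.17).

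The difference moved with gene length over protein-coding genes with a mean of 1 TPM or more. Its median was 0.09 for genes under 1000 bases, -0.13 from 1000 to 2000, -0.29 from 2000 to 4000, -0.41 from 4000 to 6000 and -0.49 for the 568 genes of 6000 bases or more. Of those 568 genes 98.6% were lower in pup 3. Relative to the median of its own length class, Ncan stood at -0.46 and Bcan at -0.19, while Vcan stood at 0.06, Tnc at 0.01, Hapln3 at 0.00 and Tnr at 0.84. So 2 of the 6 were lower in pup 3 than genes of their length. The Tnr value takes in the short entry Tnr-205, and the mean transcript length given for Tnr was 3607 bases in pup 3 and 5848 in pup 1. The long coding transcripts of Tnr alone gave a log2 ratio of -0.15 before any setting against a length class. Each pup is a single library, so litter, sex, dissection and library making cannot be told apart.

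**Figure D4:**
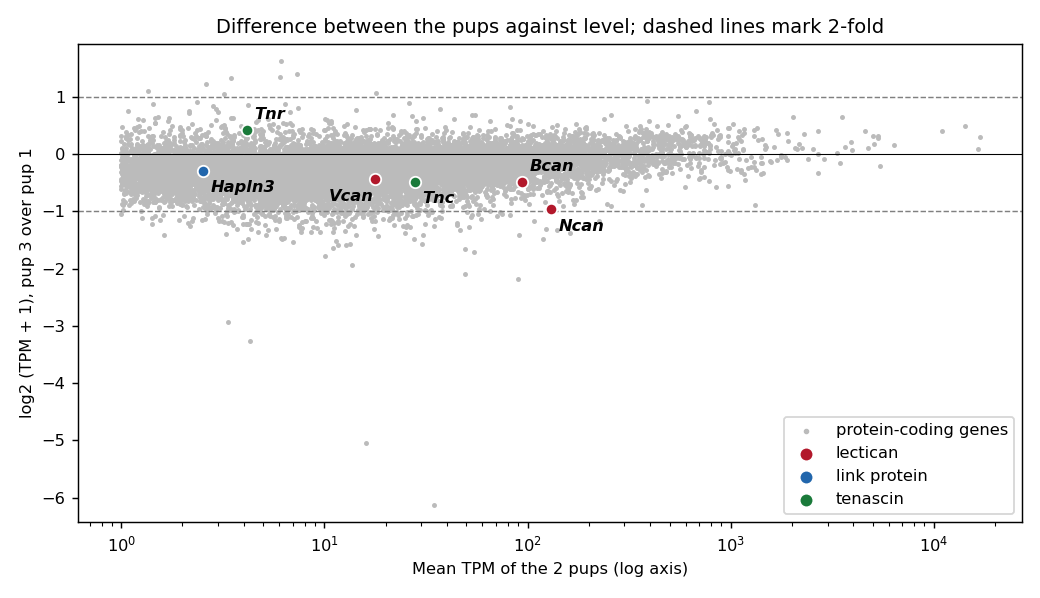
Log2 ratio of TPM + 1, pup 3 over pup 1, against the mean TPM on a log axis for protein-coding genes with a mean of 1 TPM or more (grey) and the 6 members among them (coloured by class). Ncan lies just inside the dashed 2-fold line at -0.96, and Tnr at 0.43 is the member above 0.

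The genes that make and clear hyaluronan were next examined, from lists chosen with earlier results of these data known. Counts of detected genes in these and the following lists stand beside 59.5% of all protein-coding genes. None of the 3 hyaluronan synthases reached 1 TPM in both pups. The highest was Has3, with 0.61 TPM in pup 3 and 0.71 TPM in pup 1, before Has1 (0.16 and 0.44) and Has2 (0.09 and 0.17). Of 5 genes for its breakdown 4 were detected, led by the hyaluronidase Hyal2 (33.6 TPM in pup 3, 35.6 TPM in pup 1) and the surface hyaluronidase Cemip2 (10.7 and 14.4), with Hyal1 (1.59 and 1.60) and Hyal3 (1.02 and 1.24) lower. Of 4 hyaluronan receptors 3 were detected: Lyve1 (5.27 and 4.80), Hmmr (3.39 and 3.76) and Cd44 (2.35 and 2.97), whereas Stab2 was near 0 (0.03 and 0.07).

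Chondroitin sulfate synthesis was represented in full, with 12 of 12 chain-building genes detected at a median of 11.0 TPM in pup 3 and 13.4 TPM in pup 1. Enzymes of the linkage that ties the chain to the protein lay at both ends of the list. B3gat3 had 74.7 and 73.8 TPM, B4galt7 28.7 and 35.5 TPM, and the xylose kinase Fam20b 16.7 and 25.1 TPM. The xylosyltransferases that start the linkage were lower than the list medians, with 7.23 and 9.01 TPM for Xylt2 and 1.09 and 2.11 TPM for Xylt1, the lowest of the 12. Chpf, a chain polymerising factor, had 44.1 and 46.9 TPM. Of the 10 genes for sulfation and epimerisation of the chains 8 were detected. Chst12, a 4-sulfotransferase, led with 15.2 TPM in pup 3 and 18.5 TPM in pup 1, followed by Chst15 (5.72 and 10.6), which adds a second sulfate, Dsel (6.25 and 7.41), an epimerase-like gene, and the 6-sulfotransferase Chst7 (4.68 and 5.62). Chst3 stayed at 0.26 and 0.50 TPM and Chst13 was listed at 0 in both pups.

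The proteins that bind the matrix were more abundant in RNA than most of its components. Of 12 receptor genes for lecticans, their chains and tenascins 11 were detected, with medians of 24.1 TPM in pup 3 and 32.5 TPM in pup 1. Ptprs, a receptor phosphatase for chondroitin sulfate, had 156 TPM in pup 3 and 206 TPM in pup 1. Lingo1, a partner of the Nogo receptor, had 78.4 and 94.1 TPM, and Cntn1, a contactin that binds Tnr, had 66.6 and 92.5 TPM. Ptprz1, a receptor phosphatase that is itself a chondroitin sulfate proteoglycan and binds tenascins, had 62.2 and 95.2 TPM. The integrin gene Itga9, whose product binds Tnc, was the one not detected, at 0.45 and 0.82 TPM. The integrin gene Itga8 was also low, at 1.48 and 1.55 TPM.

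All 6 other brain chondroitin sulfate proteoglycans were detected, and Cspg5, or neuroglycan C, had 186 TPM in pup 3 against 231 TPM in pup 1, above Ncan in each. Spock2 had 40.4 and 70.1 TPM and Spock1 48.1 and 53.4 TPM. The other tenascins, Tnxb (0.06 and 0.13) and Tnn (0.10 and 0.05), were near 0.

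Of 7 lectican proteases 5 were detected, all at low levels: Adamts1 had 2.92 TPM in pup 3 and 4.22 TPM in pup 1, Adamts4 2.04 and 4.65, Adamts20 1.74 and 1.88, and Adamts15 1.55 and 2.09. All 4 tissue inhibitors of metalloproteinases were detected. Timp2 led with 96.2 TPM in pup 3 and 136 TPM in pup 1, followed by Timp3 (13.7 and 27.8), which also inhibits lectican proteases, Timp4 (6.26 and 10.5) and Timp1 (3.73 and 2.11). Inhibitor RNA summed to 120 and 176 TPM, most of it Timp2, and protease RNA to 10.9 and 16.3 TPM. Timp3 alone had 13.7 and 27.8 TPM. The sums do not match inhibitors to the proteases they act on, and that balance was not tested.

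Genes of the neurons that bear perineuronal nets in adults had medians of 3.24 TPM in pup 3 and 4.32 TPM in pup 1, close to the median of 3.77 TPM over all protein-coding genes. Of 5 such genes 4 were detected, with Kcnc1, a fast potassium channel, at 7.36 TPM (pup 3) and 18.9 TPM (pup 1). Its log2 ratio of -1.25 made it the sole gene over 2-fold apart among the detected genes of the pathway lists. Of all genes with a mean of 1 TPM or more, 2.37% were over 2-fold lower in pup 3 and 0.459% over 2-fold higher. The counts of Kcnc1, 849 in pup 3 and 1449 in pup 1, were less than 2-fold apart. Kcnc2 had 3.24 and 5.0 TPM, and the calcium buffer Pvalb 1.43 and 2.31 TPM.

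**Figure D5:**
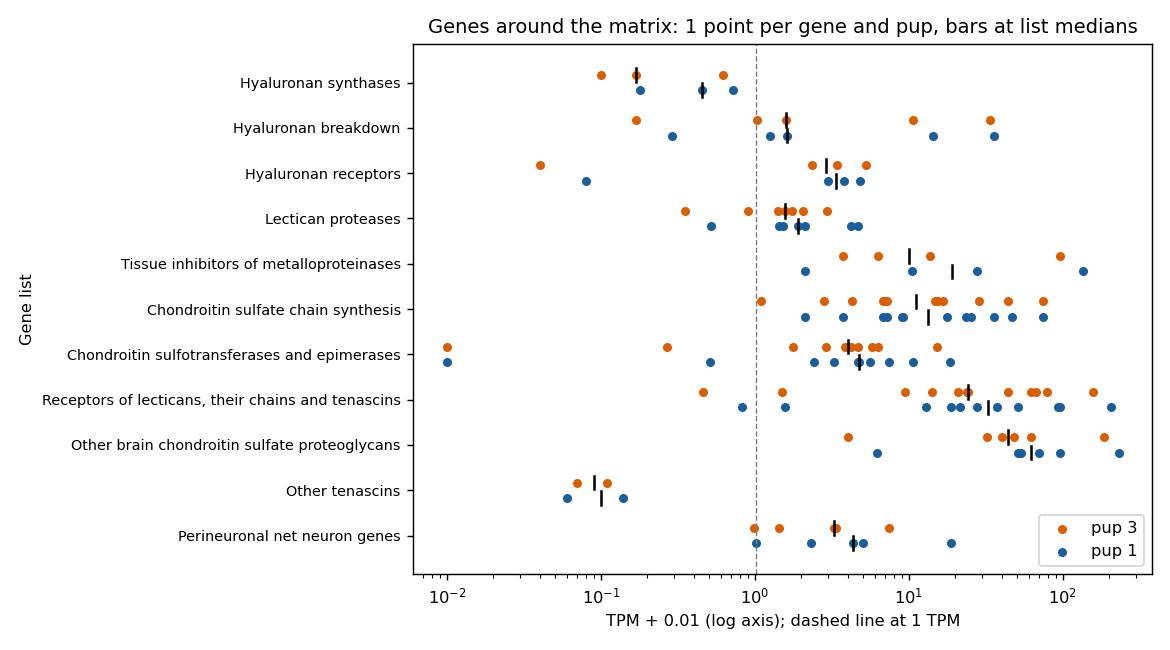
TPM + 0.01 on a log axis for each gene of the pathway lists, with 1 point per gene and pup, pup 3 above pup 1, and black bars at list medians. The 3 hyaluronan synthases lie left of the dashed 1 TPM line. The receptors of lecticans, their chains and tenascins and the other proteoglycans have medians between 24.1 and 61.7 TPM.

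Across pups most genes of these lists were lower in pup 3, as were most genes of the whole set. Among members with a mean of 1 TPM or more, the number lower in pup 3 was 11 of 12 for chain synthesis, 8 of 8 for sulfation, 11 of 11 for receptors, 6 of 6 for the other proteoglycans, 6 of 6 for the proteases, 4 of 4 for hyaluronan breakdown, 2 of 3 for hyaluronan receptors and 3 of 4 for the inhibitors, beside 79.6% of all genes. The median log2 ratios of those lists ran between -0.58 for the inhibitors and -0.12 for the hyaluronan receptors and breakdown genes. The median over all genes so filtered was -0.24. For the genes of net-bearing neurons 4 of 4 were lower, with a median of -0.47. The lists were not compared with genes of their own length.

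Markers of the cells known to make these genes were present in both pups. The 7 radial glia and astrocyte markers were all detected, with a median log2 ratio of -0.43, led by Fabp7 (2326 TPM in pup 3 and 2151 TPM in pup 1), with Aldoc (145 and 181), Slc1a3 (117 and 158) and Aldh1l1 (43.1 and 56.1) after it. All 5 neuron markers were detected, with a median of -0.54, led by Tubb3 (1626 and 1749), Snap25 (136 and 230), Dcx (124 and 181) and Syt1 (79.7 and 122). Of the oligodendrocyte precursor markers 4 of 4 were detected, with a median of -0.36: Olig1 (101 and 114), Olig2 (9.21 and 12.2), Pdgfra (7.97 and 11.5) and Sox10 (3.85 and 5.17). In pup 3, 6 of 7 radial glia and astrocyte markers and 5 of 5 neuron markers were lower, beside 79.6% of all genes with a mean of 1 TPM or more, so these counts are near the background. The part of such cells in the differences of the members was not tested.

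Markers of vessels and meninges went in both directions, and no difference between marker lists was tested. The 6 markers of meninges and fibroblasts summed to 185 TPM in pup 3 and 169 TPM in pup 1, with a median log2 ratio of 0.04 over a range of -0.43 to 0.69, led by Dcn (68.3 and 42.1), Col3a1 (44.6 and 46.6), Col1a2 (31.5 and 35.7) and Col1a1 (26.4 and 35.8). Endothelial markers (4 of 4 detected, Cldn5 at 109 and 104 TPM) and those of pericytes and smooth muscle (4 of 5 detected, Rgs5 at 11.7 and 12.4 TPM) both had a median of -0.03, over ranges of -0.62 to 0.07 and -0.42 to 0.39. Microglial markers (4 of 4 detected, C1qb at 62.2 and 55.7 TPM) had -0.10, and those of the choroid plexus (3 of 4 detected, Ttr at 1027 and 1311 TPM) had -0.41. Vcan and Tnc can also be made by meningeal and vascular cells, and the part of such cells in their levels was not tested.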

How the data were processed

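Per the labels, RNA was extracted with the mirVana kit, oligo-dT primed and tagmented (Nextera) with spike-ins. No source used here gives the strandedness, and the aligner and quantifier are not given there. The authors deposited gene and transcript tables on mm10 (annotation releases M21 and M4, per the file headers) with expected counts, TPM, FPKM, transcript percent shares of gene TPM, and lower and upper TPM bounds (given as signal, level not stated). M21 was used. Rows that are not genes held 0.000680% of counts in pup 3 and 0.000827% in pup 1.

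Computed here: log2 ratios of TPM + 1, pair ratios with a pseudocount of 0.1 TPM, class shares, detection at 1 TPM, exact 95% intervals of counts (Poisson) and of their ratios (binomial), which cover counting error only since reads carry no molecular identifiers, and exon joins and lengths from GENCODE M21. Python 3.11.15 was used; edgeR 4.0.16 and DESeq2 1.42.0 (R 4.3.3) gave only scaling factors, from rounded expected counts, and were tested on simulated data. Alternatives changed the unit, scaling, pseudocount, TPM minimum, release, transcripts counted and pup.

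All members are named, with transcripts holding 10% or more of the gene's TPM, and the 4 highest genes per list, of which some are not reported here. Emx1, Hoxb4, Chst3, Chst13, Xylt1, Xylt2, Itga8, Itga9 and Vcan-206 were named after their values were seen. Members and lists were chosen with earlier results of these data known.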

Additional observations from a re-analysis of the deposited data

How the results depend on the processing

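With 2 libraries in 1 group no test was possible, so direction and size alone are compared. Of the values that answer a comparison, 43 stayed within 1 SD (for counts, within 1.5 times) under the alternatives and 4 moved. With 2 pups, leaving 1 out cannot shift a mean by more than 1 SD. Those alternatives were therefore bound to stay for every value judged by its SD, here and in the counts below, and show nothing about stability. Relative to the median of their length class, 2 members were lower in pup 3. With protein-coding transcripts of 1000 bases or more, an alternative added after seeing the data, the mean log2 ratio of Tnc to Tnr was 3.76. As a share of expected counts, also added later, Vcan V3 was 15.0%. With posterior mean TPM, Hapln3 was 48.6% of link protein TPM and the log2 ratio of Hapln1 to Hapln4 turned to -0.19; there the 159-base entry Hapln4-202, with 0.0 counts in each pup, holds 52.4% of Hapln4 in pup 3 and 47.8% in pup 1. Of the other values 169 stayed, 61 moved and 15 changed sign. The log2 differences that changed sign were mostly in genes with few counts. Relative to the all-gene median they were Acan 0.03, Hapln1 0.22 and Hapln4 0.07. Relative to the length class median they were Acan 0.20, Vcan 0.06, Hapln1 0.27, Hapln4 0.13 and Tnc 0.01. With TMM or DESeq2 scaling they were Hapln3 0.05 and Hapln4 0.03, with FPKM Hapln1 0.05, and with the long coding transcripts Tnr -0.15. No paired analysis was possible because there is 1 group. Depth limits Acan, Hapln1, Hapln2 and Hapln4, each with at most 108 counts in a pup.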
